A study of Mus musculus with 13 samples.

Results

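The collagen genes of mouse skin were taken as every gene symbol in the count tables made of Col, a number, the letter a and a number, without Col7a1 and Col17a1. This gave 42 of 44 collagen chain symbols, among 27933 gene symbols in all. They were described in droplet single-cell RNA-seq libraries of C57BL/6 dorsal skin, prepared with 3′ v2 chemistry from 2 WT and 2 Grhl3-/- littermates per age (E14.5, E16.5 and P0). The embryonic libraries were made from whole skin and the P0 libraries from epidermis peeled off the dermis, so that dermal cells were mostly removed at P0, and a WT P0 library of the older v1 chemistry was described only. The Grhl3-/- animals carry a deletion of Grhl3, a transcription factor of the surface epithelium, in every cell, and no other allele or agent differed between the groups.

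Collagens are the main structural proteins of the extracellular matrix. Their chains wind around each other in sets to form the rods of the dermis (the fibrillar chains), the sheet under every epithelium and around vessels (the type IV chains), beaded filaments (type VI), and a number of molecules that sit on fibrils or in membranes. In skin, fibroblasts lay down most of the fibrils, whereas keratinocytes, endothelial cells, pericytes and Schwann cells are known to add chains of their own basement membranes. The 42 genes were grouped by the assembly their chain belongs to, giving 11 fibrillar, 6 basement membrane network, 6 beaded filament, 9 fibril-associated, 2 multiplexin, 3 hexagonal network and 3 transmembrane chains, and 2 others.

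The libraries held 5068 to 9978 barcodes and 49245953 to 107038146 unique molecular identifiers (UMIs, a count of captured RNA molecules), and 5058 to 9157 cells passed the filters. Cells were clustered without the collagen genes and named from marker genes, so the collagen values played no part in the classes. All 10 fibroblast, all 10 condensate, all 10 endothelial and all 8 pericyte markers were above 1 CPM (the share of a gene in all UMIs of a class, scaled to a total of 1e6, the unit of every level here) in the class named for them at both embryonic ages. Since these markers gave the classes their names, this is no separate check of the names. Between 12.99% and 32.01% of kept cells per embryonic library, and 16.4% to 24.0% at P0 with v2 chemistry, stayed in clusters that no class could claim. Grhl3 itself, read from a 3′ tag that need not lie in the deleted part, was lower in the epithelial cells of the Grhl3-/- libraries at each age (36.6 and 35.6 against 47.6 and 60.0 CPM in WT at E14.5, 9.55 and 5.96 against 14.3 and 15.8 at E16.5, 2.95 and 3.90 against 8.84 and 10.8 at P0). The level of Xist was high in 1 of 2 WT and 0 of 2 Grhl3-/- libraries at E14.5 and in 2 of 2 WT and 1 of 2 Grhl3-/- libraries at E16.5. At P0 it stood at 0.114 and 0.0993 CPM in WT and at 0.00934 and 0.0550 in Grhl3-/-. Sex was thus not balanced between the genotypes at the embryonic ages, nor between the ages. Its part in the results was not tested. No pair of libraries shared more than 1.57% of the barcodes of the smaller.

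The collagen genes together made up 1.63% ± 0.124 (SD, n = 4 libraries) of the UMIs of fibroblast-like cells at E14.5 and 3.20% ± 0.175 at E16.5. Condensate-like cells, named from markers of the dermal cells that gather under the forming hair follicle, gave 0.958% ± 0.0412 and 1.18% ± 0.0726. Pericyte-like cells gave 0.444% ± 0.0377 and 0.667% ± 0.0791, endothelial-like cells 0.227% ± 0.0305 and 0.351% ± 0.0302, and epithelial cells 0.0991% ± 0.0156 and 0.186% ± 0.0535. In the peeled P0 epidermis the share in epithelial cells was 0.0502% ± 0.00434, below every embryonic library. Over the 42 genes, 22 exceeded 100 CPM in some class, while Col4a3 and Col10a1 stayed under 1 CPM in every class of at least 50 cells.

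Droplets also pick up RNA free in the suspension. As a measure of how much fibroblast RNA this could bring, the levels of 7 dermal genes that are not collagens were expressed as a percentage of their level in fibroblast-like cells of the same library. In endothelial-like cells these 7 genes ranged from 2.68% to 9.40% at E14.5 and from 1.72% to 8.91% at E16.5. Col1a1 stood there at 4.03% and 4.86% and Col3a1 at 4.73% and 5.62%, inside the range of the dermal genes. In epithelial cells Col1a1 stood at 4.40% and 4.79% against dermal genes from 2.87% to 15.5% and from 2.81% to 7.42%. The part of free RNA in the values of these genes in embryonic endothelial-like and epithelial cells was not tested. Collagen genes under 10 CPM in any fibroblast-like library of the age were not compared, among them Col18a1 at E14.5. The set compared thus differed between the ages. A gene was counted as above the range of the dermal genes if its lowest library value exceeded the highest value of any dermal gene. In endothelial-like cells 4 of 18 genes compared were so at E14.5 and 6 of 22 at E16.5, in each case with Col4a1, Col4a2 and Col23a1 among them. By their means, 11 and 15 genes lay within or below the range. The counts that follow use the first rule. Pericyte-like cells exceeded it for 13 genes at each age. Macrophage-like and mast-like cells exceeded it for 0 of 18 genes at E14.5 and for 2 and 3 of 22 at E16.5. The red blood cell-like class carried 16.6% to 145% of the dermal genes at E14.5. Its collagen values were set aside for that reason, except in the correlations between genes over all classes given below.

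**Figure D1:**
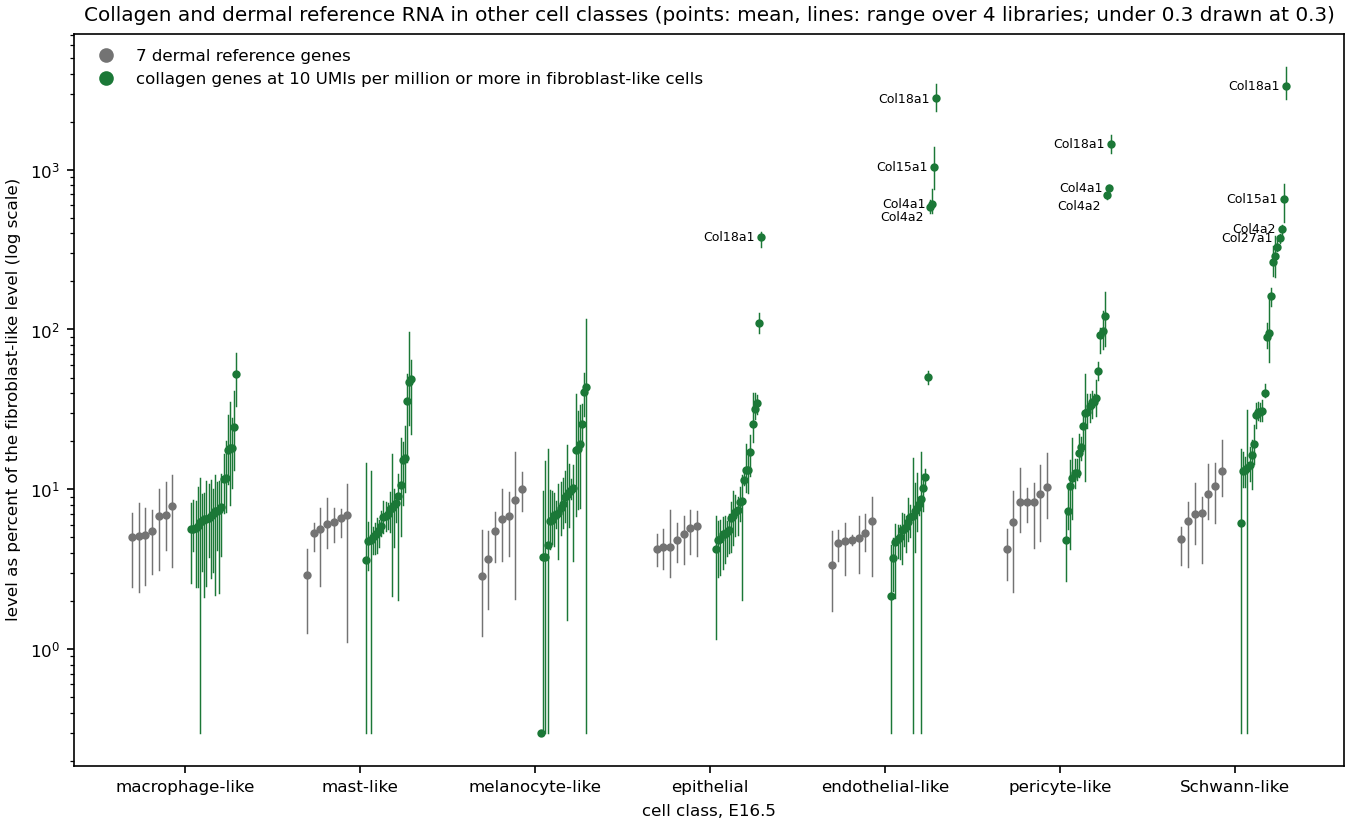
Collagen genes (green) and the 7 dermal reference genes (grey) in 7 other cell classes at E16.5, as a percentage of the level in fibroblast-like cells of the same library on a log axis, with the mean as a point and the range over 4 libraries as a line. Of the 22 collagen genes, 15 have their mean among or below the grey points in endothelial-like cells and 10 in epithelial cells, and Col4a1, Col4a2 and Col18a1 lie above them in both.

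Each class was then compared with fibroblast-like cells of the same libraries, on UMIs summed per library and class, with edgeR's quasi-likelihood test across all genes, the library as a block and Benjamini-Hochberg adjusted p under 0.05 as the threshold. Condensate-like cells were higher for 7 and lower for 16 of 33 collagen genes tested at E14.5, where 19.3% of all genes tested were higher and 21.7% lower, and higher for 12 and lower for 17 of 31 at E16.5, where the shares of all genes were 27.7% and 29.6%. Endothelial-like cells were higher for 5 and lower for 26 of 33 (28% and 30.2% of all genes), then higher for 6 and lower for 24 of 30 (30.7% and 32.4%). Pericyte-like cells were higher for 7 and lower for 22 of 33 (24.2% and 24.9%), then higher for 7 and lower for 21 of 33 (25.7% and 27.2%). Epithelial cells were higher for 3 and lower for 31 of 34 (36.1% and 37.9%), then higher for 4 and lower for 26 of 32 (36.5% and 37.9%). The remaining genes of the 42, 8 to 12 in each comparison, had too few UMIs to be tested. In endothelial-like, pericyte-like and epithelial cells most of the collagen genes tested were thus below fibroblast-like cells. Which genes were higher depended on the class.

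**Figure D2:**
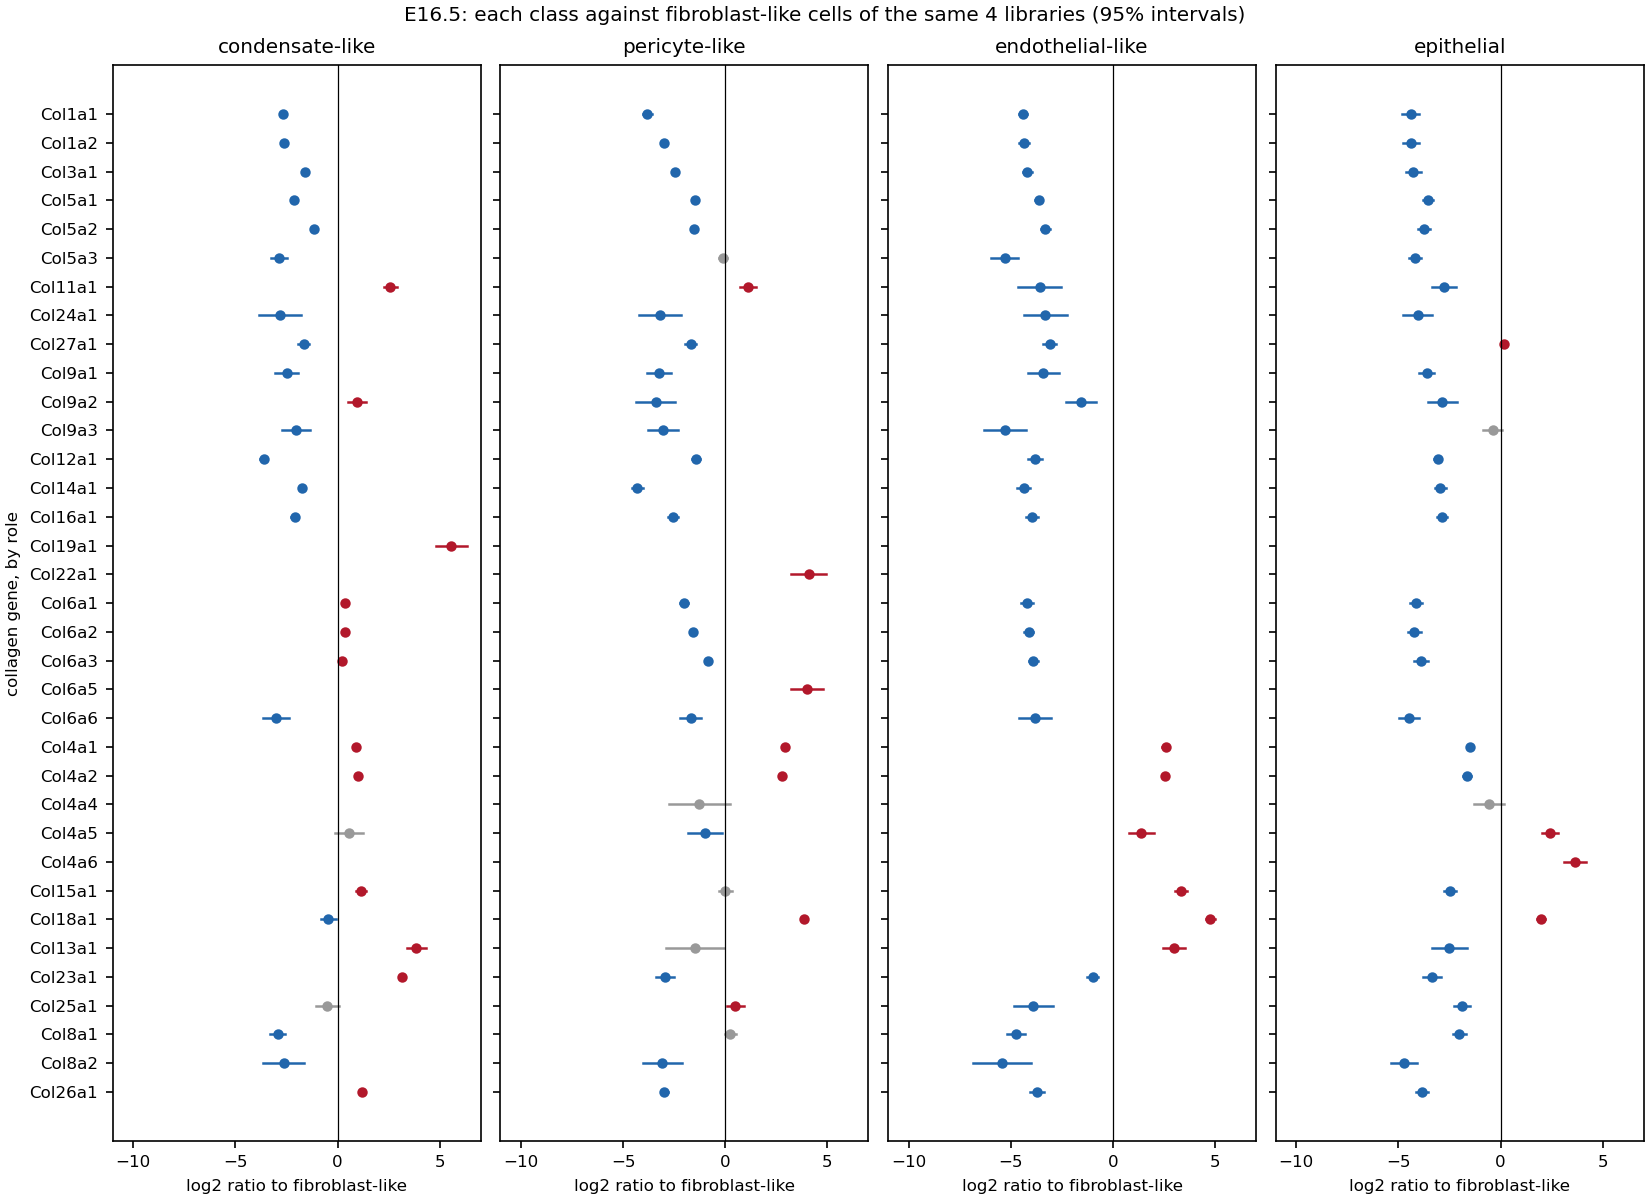
Log2 difference of each collagen gene from fibroblast-like cells at E16.5 in condensate-like, endothelial-like, pericyte-like and epithelial cells, with 95% intervals from the edgeR fit over 4 libraries. The fibrillar genes lie left of 0 in almost every panel, and Col4a1, Col4a2 and Col18a1 lie right of 0 in the vascular panels.

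Among the fibrillar chains, Col1a1 and Col1a2, which build type I collagen, and Col3a1, which builds type III, were the most abundant UMIs of the family. Col1a1 in fibroblast-like cells stood at 4271 and 3970 CPM in WT and 4989 and 4536 in Grhl3-/- at E14.5, and at 9747 and 9372 in WT and 10784 and 10514 in Grhl3-/- at E16.5. Condensate-like cells held 1565 and 1608 in WT and 1797 and 1665 in Grhl3-/- at E14.5, and 1616, 1462, 2064 and 1795 in the same order at E16.5. The groups did not overlap at either age, and the difference from fibroblast-like cells widened from -1.34 on the log2 scale (SE 0.0332, adjusted p = 3.71e-24) to -2.66 (SE 0.0342, adjusted p = 2.7e-41) as the fibroblast level rose. Col3a1 was closer between them, at -0.56 (SE 0.0328) and -1.59 (SE 0.0325), so that condensate-like cells carried 1.72 ± 0.0913 Col3a1 UMIs per Col1a1 UMI at E14.5 where fibroblast-like cells carried 0.994 ± 0.0199. Pericyte-like cells had the highest such ratio, 3.16 ± 0.546 at E14.5 and 2.27 ± 0.378 at E16.5, with Col1a1 at 333 to 495 CPM and Col3a1 at 1032 to 1525 CPM at E14.5. Their Col1a2 was likewise raised against Col1a1, with 1.90 ± 0.251 and 1.46 ± 0.185 Col1a2 UMIs per Col1a1 UMI against 0.963 ± 0.0404 and 0.828 ± 0.00630 in fibroblast-like cells. In endothelial-like cells this ratio was 0.920 ± 0.0543 and 0.853 ± 0.0654, and in epithelial cells 1.001 ± 0.109 and 0.846 ± 0.0138. Their Col3a1 UMIs per Col1a1 UMI, at 1.16 ± 0.0572 and 1.01 ± 0.0498 in endothelial-like and 1.10 ± 0.0231 and 0.962 ± 0.0473 in epithelial cells, were above those of fibroblast-like cells (0.994 ± 0.0199 and 0.876 ± 0.0109), with no overlap between libraries.

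Col5a1 and Col5a2 encode type V chains that set the diameter of type I fibrils. In fibroblast-like cells Col5a1 stood at 203 to 259 CPM at E14.5 and 374 to 392 at E16.5, and Col5a2 at 284 to 337 and 478 to 535. Both were lower in all 4 other classes at both ages, the condensate-like difference of Col5a2 being -0.78 (SE 0.0710) at E14.5 and -1.17 (SE 0.0456) at E16.5. Col5a3, another type V chain, was sparse at E14.5, with 8.56 and 11.8 CPM in WT and 6.60 and 2.29 in Grhl3-/- fibroblast-like cells, and reached 32.9 to 40.2 CPM in the 4 libraries at E16.5. Col11a1, a fibril chain better known from cartilage, broke the fibrillar pattern. It was higher in pericyte-like cells at E14.5 (26.2, 19.2, 13.7 and 14.4 CPM against 2.41 to 9.57 in fibroblast-like cells; log2 difference 1.85, SE 0.231, adjusted p = 4.73e-06) and in condensate-like cells at E16.5 (56.2, 60.1, 37.6 and 35.2 CPM against 6.31 to 10.4; 2.57, SE 0.155, adjusted p = 4.19e-18). In neither case did the 4 libraries overlap with the fibroblast-like values. The condensate-like clusters at E16.5, pooled over libraries, differed for Col11a1. That led by Hes5 and Bmp3 held 73.3 CPM and that led by Bmp4 held 2.3. Col27a1, a fibrillar chain known from cartilage, went from lower in epithelial cells at E14.5 (-1.70, SE 0.0975, adjusted p = 1.63e-07) to slightly higher at E16.5 (0.17, SE 0.0652, adjusted p = 0.0376). Its epithelial values at E16.5 were 44.2, 36.1, 47.0 and 58.7 CPM and overlapped the fibroblast-like values of 37.8 to 46.3, and the call was lost under 6 other settings, among them DESeq2 (adjusted p = 0.0951) and no library block (0.199), and without any of 3 of the 4 libraries (0.0831 to 0.158).

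Type VI collagen, a beaded filament that surrounds cells, is built from the chains of Col6a1, Col6a2 and Col6a3. All of them were higher in condensate-like than in fibroblast-like cells, in contrast to the fibrillar genes of the same cells. Col6a1 measured 927 and 952 CPM in WT and 924 and 1059 in Grhl3-/- condensate-like cells at E14.5, above fibroblast-like values of 735 to 804 in all libraries, and 1563 to 1690 against 1155 to 1215 at E16.5. The log2 differences were 0.42 (SE 0.0419, adjusted p = 8.88e-10) and 0.35 (SE 0.0338, adjusted p = 1.01e-11) for Col6a1, 0.44 and 0.39 for Col6a2, and 0.67 and 0.20 for Col6a3. When unnamed clusters were put into the fibroblast-like, condensate-like or epithelial class whose markers they scored highest for, Col6a3 turned to -0.14 at E16.5 (adjusted p = 0.000158). Col6a3 in pericyte-like cells was lower than in fibroblast-like cells at E14.5 by 0.28 on the log2 scale (SE 0.0613, adjusted p = 0.0012), at 232 to 278 against 292 to 342 CPM, while Col6a1 was at 22.4% of it. The ratio of Col6a3 to Col6a1 UMIs was accordingly 1.497 in pericyte-like cells and 0.424 in fibroblast-like cells at E14.5, and 1.18 and 0.517 at E16.5. Of the newer type VI chains, Col6a6 had its highest mean among the named classes in fibroblast-like cells (11.5 CPM at E14.5 and 13.3 at E16.5) and was lower in the 4 classes compared with them. Tendon-like cells reached 11.9 CPM at E14.5 and muscle-like cells 13.7 at E16.5, within the range of the fibroblast-like libraries. Col6a5 was found in pericyte-like cells at E16.5, at 5.38, 4.87, 5.38 and 4.34 CPM against 0.223 to 0.444 in fibroblast-like cells (log2 difference 3.99, SE 0.374, adjusted p = 7.86e-08), from a total of 208 UMIs in all kept cells of the series. Col6a4 had 41 UMIs in all.

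The type IV chains make the network of basement membranes. Of their head-to-head gene pairs, Col4a1 with Col4a2 and Col4a5 with Col4a6 had their highest means in different classes of embryonic skin. Col4a3 and Col4a4 were sparse. Col4a1 and Col4a2, whose products join in nearly all basement membranes, lie head to head on chromosome 8 (GRCm38, 11198423 to 11312826 on the minus strand and 11312805 to 11449287 on the plus strand). Col4a1 in endothelial-like cells measured 554 and 420 CPM in WT and 500 and 629 in Grhl3-/- at E14.5, and 763, 715, 857 and 752 at E16.5. Pericyte-like cells measured 530, 385, 499 and 556 CPM and then 1056, 1068, 874 and 963, so the classes overlapped at E14.5, and at E16.5 every pericyte-like value exceeded every endothelial-like one. Fibroblast-like cells, at 52.8 to 79.4 and then 113 to 134 CPM, lay far below both, with log2 differences of 3.01 (SE 0.0665, adjusted p = 5.58e-15) and 2.58 (SE 0.0803, adjusted p = 2.6e-11) for endothelial-like and 2.90 (SE 0.0549) and 2.94 (SE 0.0448) for pericyte-like cells. Col4a2 followed, with endothelial-like values of 354 to 467 and 417 to 481 CPM and pericyte-like values of 313 to 358 and 487 to 560. Condensate-like cells were also higher than fibroblast-like cells for both genes, by 1.15 (SE 0.0741) and 0.88 (SE 0.0502) for Col4a1 and by 1.06 and 1.01 for Col4a2. Epithelial cells were lower, with 19.3 to 26.3 CPM of Col4a1 at E14.5 and 38.2 to 52.5 at E16.5. Over 131 sums of 18 classes in 12 libraries, which share depth and free RNA within a library, Spearman's rho between Col4a1 and Col4a2 was 0.981.

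Col4a5 and Col4a6, chains of the epithelial type IV networks, lie head to head on the X chromosome with 1308 bases between their gene models (Col4a6 at 141165403 to 141474076 on the minus strand and Col4a5 at 141475385 to 141689234 on the plus strand of GRCm38). They were the collagen genes whose mean, among the named classes, was highest in basal-like keratinocytes at each of the 3 ages. Since the 2 genes leave from one short stretch of DNA and were highest in the same cells, the 250 bases before each start are shown, as RefSeq gives them on GRCm38.p6 and read 5′ to 3′ in the direction of the gene, for chrX:141475169-141475418 on the plus strand (Col4a5) and chrX:141474077-141474326 on the minus strand (Col4a6). The RefSeq start of Col4a5 lies inside the gene model given above, which comes from the GENCODE annotation. Capitals mark the letters CCAAT and GGGCGG on either strand, and the letters TATAAA were searched as well.
Col4a5: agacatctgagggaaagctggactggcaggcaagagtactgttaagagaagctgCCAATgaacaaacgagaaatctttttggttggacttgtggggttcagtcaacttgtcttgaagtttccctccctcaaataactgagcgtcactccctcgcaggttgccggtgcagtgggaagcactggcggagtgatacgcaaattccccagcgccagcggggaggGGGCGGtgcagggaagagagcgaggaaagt
Col4a6: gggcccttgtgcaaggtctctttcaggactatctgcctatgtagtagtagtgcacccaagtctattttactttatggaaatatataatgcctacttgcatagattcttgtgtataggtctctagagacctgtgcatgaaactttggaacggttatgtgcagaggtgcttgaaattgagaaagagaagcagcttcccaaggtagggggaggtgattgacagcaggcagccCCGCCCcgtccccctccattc
The Col4a5 window held 1 CCAAT and 1 GGGCGG and the Col4a6 window 1 GGGCGG, written here as its complement, and neither held TATAAA. Among 32536 such windows of the genome 33.8% held CCAAT, 33% GGGCGG and 12.3% TATAAA, so these letters are common and no site is implied by them.

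Col4a5 in epithelial cells measured 12.7 and 12.5 CPM in WT and 15.3 and 16.1 in Grhl3-/- at E14.5, and 15.9, 16.2, 11.97 and 11.7 at E16.5. Fibroblast-like cells measured 4.70 to 8.06 and then 2.45 to 3.66 CPM, with no overlap at either age (log2 differences 1.22, SE 0.119, adjusted p = 8.06e-06, and 2.42, SE 0.178, adjusted p = 1.57e-06). Col4a6 was higher by 1.93 (SE 0.189, adjusted p = 8.3e-06) and 3.65 (SE 0.238, adjusted p = 6.64e-07) in epithelial cells, at 4.28 to 6.57 and 4.24 to 6.20 CPM. Their rho over the same 131 sums was 0.807. In endothelial-like cells Col4a5 was below the fibroblast level at E14.5 (0.570 to 2.99 CPM; -1.71, SE 0.372, adjusted p = 0.001) and above it at E16.5 (4.47 to 9.04 CPM; 1.38, SE 0.279, adjusted p = 0.000876), so its direction turned with age. Col4a3 and Col4a4, another head-to-head pair and known from kidney and lung, were almost silent, with 36 and 696 UMIs in all kept cells and a rho of 0.132.

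The multiplexins Col15a1 and Col18a1 encode chains of vessel and epithelial basement membranes, the C-terminal piece of the latter being endostatin. Col18a1 gave the most positive difference of any collagen gene in endothelial-like cells at both ages, at 372 and 378 CPM in WT and 378 and 490 in Grhl3-/- against 4.28 to 9.25 in fibroblast-like cells at E14.5 (log2 6.29, SE 0.168, adjusted p = 5.46e-14). At E16.5 the values were 344, 386, 393 and 384 CPM against 11.1 to 16.3 (4.77, SE 0.0987, adjusted p = 6.62e-13). It was also higher in pericyte-like cells (51.8 to 87.9 CPM, then 183 to 214; 3.91 and 3.84) and in epithelial cells (71.9 to 82.0 CPM, then 45.6 to 61.1; 3.94, SE 0.148, and 1.97, SE 0.0820), and lower in condensate-like cells at both ages (-1.29 and -0.46). Neither condensate-like call held with DESeq2 (adjusted p = 0.123 and 0.113), with doublets removed (0.0999 and 0.202) or without the library block (0.0867 and 0.0578). They were also lost without WT replicate 2 (0.243) or Grhl3-/- replicate 1 (0.0540) at E14.5 and without Grhl3-/- replicate 1 (0.0944) or 2 (0.112) at E16.5. Col15a1 in endothelial-like cells measured 134, 135, 187 and 156 CPM at E14.5 and 177, 197, 153 and 156 at E16.5, higher by 4.93 (SE 0.144) and 3.32 (SE 0.134). In condensate-like cells Col15a1 did not pass the test at E14.5 (3.09 to 17.8 CPM) and was higher at E16.5 (32.9, 44.1, 37.6 and 47.9 CPM against 14.2 to 20.5; 1.15, SE 0.119, adjusted p = 4.84e-11), a difference that became -0.15 (adjusted p = 0.210) with the unnamed clusters added in the same way. Of the condensate-like clusters at E16.5, that led by Hes5 and Bmp3 held 60.0 CPM of Col15a1 and that led by Bmp4 held 2.3.

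Col12a1, Col14a1 and Col16a1 encode fibril-associated chains, which lie on the surface of fibrils. All of them were lower in condensate-like, endothelial-like, pericyte-like and epithelial cells than in fibroblast-like cells at both ages. Col12a1 stood at 153 to 191 CPM in fibroblast-like and at 11.1, 15.4, 25.7 and 25.7 in condensate-like cells at E14.5 (-2.96, SE 0.115, adjusted p = 1.74e-19). At E16.5 the values were 192 to 246 and 16.6 to 20.7 CPM, the most negative difference of any collagen gene past the threshold in condensate-like cells at that age (-3.62, SE 0.0902, adjusted p = 2.61e-31). Col14a1 stood at 33.0 to 74.9 and 121 to 132 CPM in fibroblast-like cells and differed most in pericyte-like cells at E16.5 (-4.30, SE 0.132). Col16a1, at 52.2 to 56.6 and 105 to 113 CPM in fibroblast-like cells, differed by -0.93 (SE 0.129) and -2.11 (SE 0.0962) in condensate-like cells. Col22a1, a chain of tissue junctions, was sparse and higher in pericyte-like cells (4.16 to 6.79 CPM and 3.84 to 6.08 against 0.844 to 1.18 and 0.168 to 0.334 in fibroblast-like cells; 2.27, SE 0.354, and 4.08, SE 0.407), though tendon-like cells at E14.5 held 2.77, 1.65, 11.5 and 0.489 CPM. Col19a1, a chain of basement membrane zones, was near 0 in condensate-like cells at E14.5 (0 to 2.36 CPM) and stood at 8.10, 10.9, 14.7 and 8.99 CPM at E16.5 against a mean of 0.206 in fibroblast-like cells (5.55, SE 0.375, adjusted p = 1.76e-16). The type IX genes Col9a1 and Col9a3, whose chains decorate cartilage fibrils, were lower in endothelial-like and pericyte-like cells at both ages. Col9a2 was lower in condensate-like cells at E14.5 (-1.68, SE 0.311, adjusted p = 5.14e-05) and higher at E16.5 (0.96, SE 0.225, adjusted p = 0.000364), with 2.06 to 5.91 and then 8.84 to 12.1 CPM.

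The transmembrane chain genes were higher in condensate-like, endothelial-like or pericyte-like cells. Col23a1 was higher in condensate-like cells, at 180 and 169 CPM in WT and 134 and 145 in Grhl3-/- at E14.5 against 22.8 to 34.2 in fibroblast-like cells (2.502, SE 0.0982, adjusted p = 2.3e-19), and at 256, 231, 260 and 240 against 22.5 to 29.4 at E16.5 (3.16, SE 0.0673, adjusted p = 1e-33). Col13a1, a chain of cell contacts and neuromuscular junctions, was also higher in condensate-like than in fibroblast-like cells at E16.5, at 20.2, 22.4, 17.7 and 20.2 CPM against a mean of 1.29 (3.85, SE 0.226, adjusted p = 1.95e-18). It held 1.03 to 2.36 CPM in condensate-like cells at E14.5, and the ages were not compared by a test in these cells. Endothelial-like cells were also higher for Col13a1 at both ages (1.11, SE 0.436, adjusted p = 0.0396, and 3.00, SE 0.246, adjusted p = 3.01e-07). At E14.5 this rested on values of 1.14, 8.22, 1.42 and 2.29 CPM, with WT replicate 2 well above the others, and the call was lost without the library block (adjusted p = 0.372), with DESeq2 (0.09998), with no filter on low counts (0.0907) and without any one of the 4 libraries (0.0577 to 0.145). Col25a1, a chain known from brain and from motor innervation of muscle, was higher in pericyte-like cells (7.59 to 17.05 CPM at E14.5; 1.22, SE 0.260), and at E16.5 by 0.49 (adjusted p = 0.0415). The latter call was lost with DESeq2 (0.136), with no filter on low counts (0.0522), with clusters built without integration (0.0824), with doublets removed (0.156), with unnamed clusters added (0.0956) and without any of 3 of the 4 libraries (0.0832 to 0.209). Col26a1, a chain first described in testis and ovary, was higher in condensate-like cells at 324 to 412 CPM at E14.5 and 310 to 430 at E16.5, against 227 to 262 and 138 to 171 in fibroblast-like cells (0.67, SE 0.0593, and 1.18, SE 0.0468). Its fibroblast level fell between the ages, whereas in condensate-like cells the ranges overlapped.

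Seen over both ages, the genes called higher in condensate-like cells at E14.5 and again at E16.5 were Col4a1, Col4a2, Col6a1, Col6a2, Col6a3, Col23a1 and Col26a1, with the limit given for Col6a3. Endothelial-like cells were higher for Col4a1, Col4a2, Col15a1 and Col18a1, and for Col13a1 with the limits given for E14.5, pericyte-like cells for Col4a1, Col4a2, Col11a1, Col18a1 and Col22a1, and for Col25a1 with the limits given for E16.5, and epithelial cells for Col4a5, Col4a6 and Col18a1. For Col9a2, Col4a5 and Col27a1, in condensate-like, endothelial-like and epithelial cells respectively, the call turned from lower to higher, with the limits given for Col9a2 and Col27a1 at E16.5. Col4a4 was called lower in condensate-like and endothelial-like cells at E14.5 with no UMI in any of their 8 sums, where a count of 0 allows up to 3 UMIs, and no fold change is given for it.

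Schwann-like and tendon-like cells were not among the planned comparisons and are described only. Schwann-like cells, the glia of skin nerves with 103 to 183 cells per library, had the highest mean of any named class for 9 genes at E14.5 and 14 at E16.5. Col4a3 and Col10a1, under 1 CPM in every class, were left out of these counts. Cells of unnamed clusters were left out of all rankings of classes. At E14.5 they included a cluster that scored highest for chondrocyte markers, described below, so cartilage collagens may be higher there. Col9a2 there stood at 84.3, 71.6, 45.9 and 59.3 CPM at E14.5 and 86.5 to 135 at E16.5, and Col9a3 at 68.9 to 93.3 and 94.9 to 176, where fibroblast-like cells held at most 16.98 of either. Col20a1 was nearly confined to them, at 48.0 to 63.3 CPM and 31.1 to 82.5 CPM with the next class mean at 2.05 and 0.612. Col14a1 at 202 to 287 and 285 to 401 CPM, Col11a1 at 28.8 to 43.4 and 126 to 178 CPM and Col28a1 at 1.51 to 3.47 CPM at E16.5 also had their highest mean in Schwann-like cells, though at E14.5 Col11a1 reached 59.6 CPM in 1 tendon-like sum. Col18a1 at E16.5 had a mean of 448 CPM in Schwann-like and 377 in endothelial-like cells. Col5a3 at E16.5 had a mean of 60.0 CPM in Schwann-like and 36.9 in fibroblast-like cells. Tendon-like cells, present at E14.5 with 179 to 259 cells per library, had the highest mean of any named class for 13 genes, among them Col8a1, a hexagonal network chain of vessel walls and the eye, at 300, 247, 339 and 363 CPM and Col12a1 at 362, 303, 519 and 422 CPM.

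The fibroblast-like class was not uniform. It held 11 clusters at E14.5 and 12 at E16.5, defined without collagen genes and pooled over libraries, which are compared here as a description with no test. Col1a1 varied 2.60-fold between them at E14.5, from 2848 to 7407 CPM, with the highest value in the cluster led by Cemip and Efemp1. Col5a3 ranged from 0.179 to 40.5 CPM at E14.5 and from 1.26 to 234 at E16.5, highest in the clusters led by Nov, Ly6a and Mfap5 and by Pi16, Mfap5 and Ly6a. Col14a1 was highest in the same clusters at 190 and 450 CPM, and Col6a6 reached 59.7 and 69.7 CPM in clusters led by Ly6a and Mfap5. Col12a1 was highest elsewhere, at 476 CPM in the Cemip and Efemp1 cluster and at 767 in that led by C1qtnf3 and Eln. Col4a1, Col18a1 and the fibrillar Col11a1 were highest in other clusters again, with Col4a1 at 259 and 385 CPM, Col18a1 at 69.5 and 82.5 and Col11a1 at 24.5 and 26.5 in those led by Cldn11 and Aldh1a2 (E14.5) and by Entpd2 and Meox2 (E16.5). Col4a1 was lowest, at 13.5 and 30.9 CPM, in clusters where Col6a6 was highest.

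Collagen chains need a set of enzymes and chaperones, and 31 genes of modification, folding, secretion, trimming and cross-linking were followed. They were lower than in fibroblast-like cells for 22 of 28 tested in condensate-like, 26 of 28 in endothelial-like, 23 of 29 in pericyte-like and 29 of 30 in epithelial cells at E14.5, and for 25 of 28, 26 of 29, 25 of 28 and 27 of 28 at E16.5. Of all genes, 21.7%, 30.2%, 24.9% and 37.9% were lower at E14.5 and 29.6%, 32.4%, 27.2% and 37.9% at E16.5. Lox, the cross-linking lysyl oxidase, was lower by 3.42 to 4.59 on the log2 scale in the 4 classes at E14.5 and by 3.16 to 4.58 at E16.5. The exceptions differed by class, with Loxl2 higher in condensate-like cells at E14.5 (1.22) and Plod2, a lysyl hydroxylase, at E16.5 (0.88), Loxl3 in pericyte-like cells (2.04 and 1.55) and Colgalt2, a collagen galactosyltransferase, in endothelial-like cells (1.63 and 1.02). Of 16 genes of receptors, collagenases and their inhibitors, 3 were higher and 4 lower of 11 tested in condensate-like cells at E14.5, 4 and 7 of 12 in endothelial-like, 5 and 6 of 12 in pericyte-like and 2 and 10 of 12 in epithelial cells. At E16.5 the counts were 2 and 5 of 10, 4 and 7 of 11, 5 and 5 of 11, and 2 and 9 of 12. Over the 8 comparisons 19.3% to 36.5% of all genes were higher and 21.7% to 37.9% lower, and 10 to 12 genes tested are too few to read a small departure from these shares. Itga1, a subunit of a collagen-binding integrin, was higher in pericyte-like cells (3.89 at E14.5 and 4.60 at E16.5) and in endothelial-like cells (1.17 and 1.41), Itga2 was higher in endothelial-like cells (7.55 and 6.94), and Ddr1, a collagen receptor kinase, was higher in epithelial cells (2.42 and 2.46) where the related Ddr2 was lower (-4.17 and -3.86).

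Between E14.5 and E16.5 more collagen genes rose than fell in fibroblast-like cells. In WT, 16 collagen genes rose and 11 fell of 35 tested, where 16.9% of all genes tested rose and 17.1% fell, and in Grhl3-/- 19 rose and 8 fell, against 15.6% and 14.7%. The comparisons use separate libraries. Of the fibrillar genes 6 rose and 2 fell of 10 tested in WT and 7 rose and 1 fell in Grhl3-/-, and of the beaded filament genes 3 rose and 1 fell of 5 in WT and 4 rose and 0 fell in Grhl3-/-. Col1a1 rose by 1.34 on the log2 scale in WT (SE 0.0808, adjusted p = 6.35e-06) and by 1.31 in Grhl3-/- (SE 0.0807, adjusted p = 5.2e-06), with the per-library values given above and no overlap between the ages. Col3a1 rose by 1.18 (SE 0.0776) and 1.10 (SE 0.0775), from 3880 to 5029 CPM in the 4 libraries at E14.5 to 8351 to 9374 at E16.5. Col6a3 rose by 1.11 and 1.03, Col6a1 by 0.78 and 0.79, Col16a1 by 1.14 and 1.15 and Col14a1 by 1.21 and 1.70. The largest rise was that of Col5a3, by 1.99 in WT (SE 0.299, adjusted p = 0.000968) and 3.21 in Grhl3-/- (SE 0.325, adjusted p = 0.000103). Falls were seen for Col8a1 (80.4 and 114 to 37.6 and 41.0 CPM in WT; -1.19, SE 0.209, adjusted p = 0.00229), for Col26a1 (-0.59 and -0.58), for Col9a2 (-1.71 and -0.61, the latter lost with clusters built without integration, adjusted p = 0.279) and Col9a3, and for the epithelial type IV genes Col4a5 (-1.05 and -1.22) and Col4a6 (-1.54 and -1.90).

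Of the processing genes, 13 of 30 tested rose and 4 fell in WT fibroblast-like cells and 18 rose and 1 fell in Grhl3-/- cells between these ages, beside the shares of all genes given above. Pcolce, an enhancer of procollagen trimming, rose by 1.01 and 1.26 and P4ha2, a prolyl hydroxylase subunit, by 1.2998 and 1.03, while Tll1 fell by 2.27 and 2.93.

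Endothelial-like cells of WT showed 10 collagen genes higher and 0 lower at E16.5 of 21 tested, against 6.48% of all genes higher and 5.59% lower. Among them Col4a1 rose by 0.63 (487 to 739 CPM on average; SE 0.147, adjusted p = 0.0142) and Col15a1 by 0.50 (SE 0.116, adjusted p = 0.0131), the former lost without any of 3 of the 4 libraries and the latter with DESeq2 (0.0796) or without any library, whereas Col4a2 (420 and 449 CPM) and Col18a1 (375 and 365 CPM) did not pass. The other rises were of Col1a1, Col1a2, Col3a1, Col5a1, Col6a1, Col6a2 and Col6a3, genes not above the free RNA range in these cells, and of Col4a5. The count fell to 3 without WT replicate 1 at E16.5 and to 6 without WT replicate 2, and the calls of Col5a1, Col6a1, Col6a2 and Col6a3 were lost with doublets removed. In WT epithelial cells 12 of 33 rose and 4 fell, against 11.1% and 8.74% of all genes. The rises included 5 fibrillar and 3 beaded filament genes, among them Col1a1, Col1a2, Col3a1, Col6a1, Col6a2 and Col6a3, which were not above the free RNA range in epithelial cells at either age. The fibroblast markers summed to 641 and 542 CPM in these cells at E14.5 and to 1156 and 1049 at E16.5, and the 7 dermal genes to 346 and 228 and then 318 and 236. Their part in the rises was not tested. On the log2 scale the largest of the rises was that of Col27a1, from 11.5 and 13.3 to 44.2 and 36.1 CPM (1.77, SE 0.155, adjusted p = 1.38e-05). Hair follicle-like cells, with Col27a1 at 133 and 110 CPM, were 21.8% and 16.9% of the WT epithelial cells at E16.5. No cluster was given that name at E14.5, where a basal-like cluster of 735 cells scored 0.846 on the basal and 0.647 on the hair follicle list. Basal-like cells went from 21.0 and 23.5 to 36.5 and 40.6 CPM of Col27a1. The part of this share in the rise was not tested. Col8a1 fell in WT epithelial cells by 1.58 (SE 0.220, adjusted p = 0.00044) and Col18a1 by 0.67 (SE 0.165, adjusted p = 0.0145), the latter lost without any of 3 of the 4 libraries (0.0706 to 0.116). In basal-like cells alone Col8a1 went from 52.2 and 39.3 to 11.6 and 11.6 CPM and Col18a1 from 109.9 and 121.3 to 51.5 and 52.0. Suprabasal-like cells went from 18.9% and 18.8% to 26.5% and 30.6% of the WT epithelial cells, unclear clusters included. At E14.5 a further 25.7% and 25.2% lay in a cluster that scored highest for periderm but was given no class of its own. No epithelial cluster was so placed at E16.5. A suprabasal-like cluster at E16.5 was unclear by the rule given below for P0. Without it suprabasal-like cells at E16.5 were 206 of 1520 and 287 of 1733 WT epithelial cells, lower shares than at E14.5. The direction of the suprabasal-like move thus depended on that cluster. The part of these shares in the falls was not tested. This count was 6 without WT replicate 2 at E14.5 and 7 without WT replicate 1 at E16.5.

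**Figure D3:**
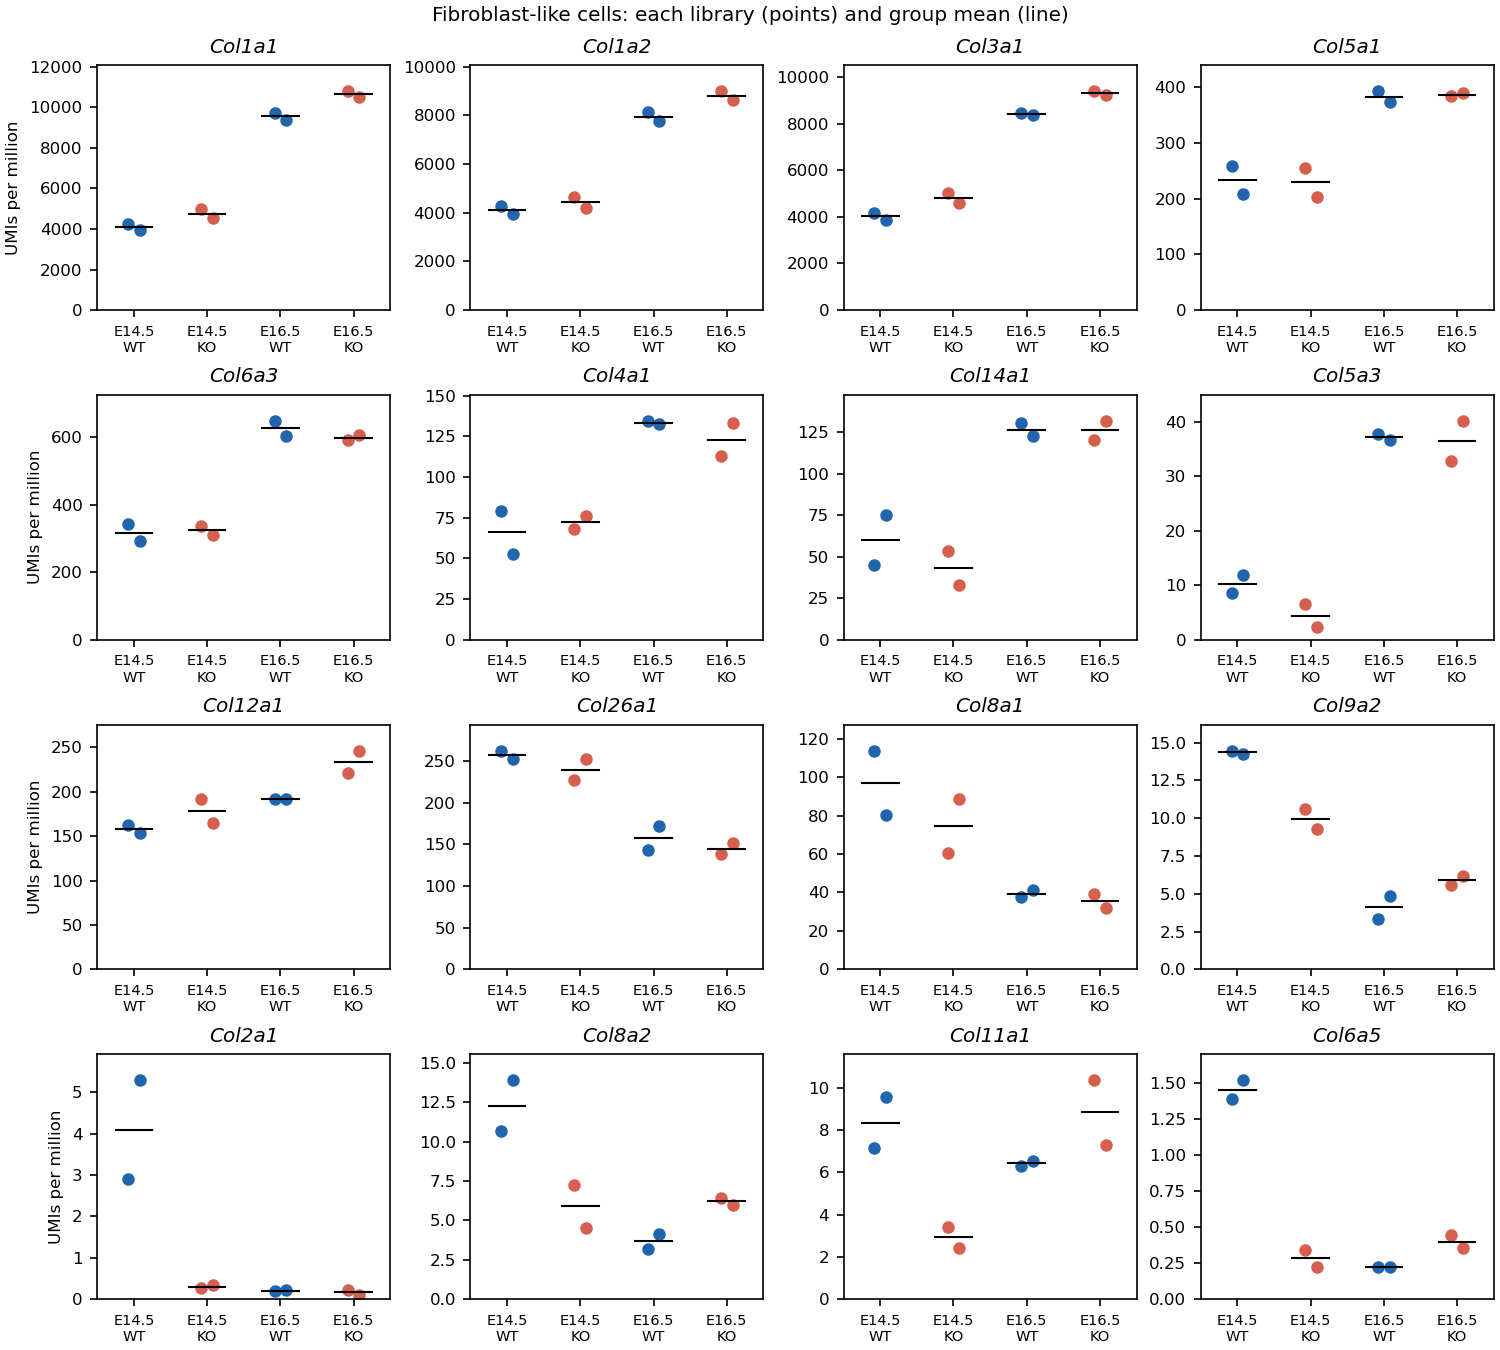
Level of 16 collagen genes in fibroblast-like cells by age and genotype, in CPM on an axis of its own for each gene, with a point for each of the 2 libraries of a group and a bar for their mean. The E16.5 points lie above the E14.5 points for Col1a1, Col1a2, Col3a1, Col5a1, Col5a3 and Col6a3 in both genotypes, and the WT and Grhl3-/- points differ at E14.5 for Col2a1, Col6a5, Col8a2 and Col11a1.

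The collagen genes that passed the test between Grhl3-/- and WT fibroblast-like cells were sparse ones. In fibroblast-like cells at E14.5 the test called 4 of 35 genes lower and 0 higher in Grhl3-/-, where 1.49% of all genes were lower and 0.693% higher. These were Col2a1, the cartilage fibril chain, at 2.89 and 5.29 CPM in WT and 0.257 and 0.333 in Grhl3-/- (-3.78, SE 0.398, adjusted p = 0.0044), Col6a5 at 1.39 and 1.52 against 0.343 and 0.222 (-2.38, SE 0.380, adjusted p = 0.0181), Col11a1 at 7.17 and 9.57 against 3.43 and 2.41 (-1.55, SE 0.226, adjusted p = 0.013), and Col8a2 at 10.7 and 13.9 against 7.24 and 4.51 (-1.09, SE 0.214, adjusted p = 0.0376). In this comparison 17 collagen genes, called or not, had no overlap between the WT and Grhl3-/- libraries. The 4 called genes were among these and were all under 15 CPM. Cartilage genes of the same cells moved with them, since 6 chondrocyte markers summed to 7.05 and 10.1 CPM in WT and 2.36 and 1.67 in Grhl3-/- fibroblast-like cells, with 0, 0, 1 and 2 of the 6 at 0. Cells of an unnamed cluster that scored highest for those markers made up 7.16% and 10.5% of kept WT cells and 2.98% and 1.35% of kept Grhl3-/- cells, and 5 tendon markers summed to 48.0 and 52.2 against 30.1 and 31.9 CPM in the fibroblast-like cells. Their part in the 4 differences was not tested. With no filter on low counts 14 genes passed, Col1a1 and Col3a1 among them. Without WT replicate 1 the test called 8, without WT replicate 2 it called 2 and without Grhl3-/- replicate 2 it called 1. Col8a2 was lost with clusters built without integration (adjusted p = 0.0640) and Col6a5 with DESeq2 (0.0701). Of the abundant genes, Col1a1 differed by 0.19 (SE 0.0794, adjusted p = 0.275), Col3a1 by 0.23 (SE 0.0766, adjusted p = 0.162) and Col1a2, Col5a1, Col5a2, Col6a1, Col6a2, Col6a3, Col12a1 and Col26a1 by -0.13 to 0.15.

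At E16.5 none of 35 genes passed in fibroblast-like cells, where 1.23% of all genes did. Without adjustment 4 had p under 0.05, the smallest adjusted p was 0.245 (Col8a2), and DESeq2 also called 0, while with no filter on low counts 5 passed. Col1a1 stood at 9747 and 9372 CPM in WT and 10784 and 10514 in Grhl3-/-, a difference of 0.16 (SE 0.0794, adjusted p = 0.578), and Col12a1, at 192 and 192 against 221 and 246 CPM, differed by 0.29 (SE 0.0896, adjusted p = 0.245). The change from E14.5 to E16.5 was itself compared between the genotypes, and 4 of 35 genes passed, all with a more positive change in Grhl3-/-. Of all genes, 1.34% passed with a more positive and 0.929% with a more negative change. The differences were 3.19 for Col6a5 (SE 0.630, adjusted p = 0.0359), 2.013 for Col11a1 (SE 0.308, adjusted p = 0.0158), 1.87 for Col8a2 (SE 0.323, adjusted p = 0.0236) and 1.10 for Col9a2 (SE 0.231, adjusted p = 0.0442). For Col6a5, Col11a1 and Col8a2 the genotypes were apart at E14.5, as given above, and Col9a2 stood at 14.46 and 14.3 CPM in WT and 10.6 and 9.29 in Grhl3-/- at E14.5 and at 3.34, 4.87, 5.60 and 6.17 at E16.5. The count of 4 rested on single libraries, being 0 without WT replicate 1 at E16.5, 2 without WT replicate 2 at E14.5, and 1 without Grhl3-/- replicate 2 at E14.5 or without any other library at E16.5.

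In embryonic epithelial cells 1 collagen gene in all passed the test between Grhl3-/- and WT. At E14.5 none of 33 genes passed, where 0.695% of all genes did, with 4 at p under 0.05 before adjustment, a smallest adjusted p of 0.186 (Col2a1), 0 calls by DESeq2 and 3 with no filter on low counts. At E16.5 only Col9a3 passed, at 4.73 and 3.83 CPM in WT and 9.55 and 10.3 in Grhl3-/- (1.15, SE 0.210, adjusted p = 0.0352), where 0.272% of all genes were higher. DESeq2 called 1 gene as well, and leaving out any of the 4 libraries left 0. Hair follicle-like cells, which held Col9a3 at 21.0 and 24.6 CPM in WT and 39.7 and 30.4 in Grhl3-/- against 0.956 to 1.90 in basal-like cells, made up 21.8% and 16.9% of epithelial cells in WT and 26.8% and 36.3% in Grhl3-/-, and the part of this share in the difference was not tested.

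In the P0 epidermis the set of collagen genes with many UMIs was a different one. Epithelial cells there had Col4a1 at 129 and 108 CPM in WT and 119 and 106 in Grhl3-/-, Col27a1 at 149 and 159 in WT and 110 and 95.1 in Grhl3-/-, and Col4a2 at 53.3 to 72.3. Col1a1, at 586 and 376 CPM in WT epithelial cells of whole skin at E16.5, was at 0.190 and 0.371 CPM, or 9 and 20 UMIs. Against E16.5, 6 of 33 genes were higher and 18 lower in WT, where 30.8% and 29.6% of all genes were. The higher ones were Col4a1 (1.31, SE 0.160, adjusted p = 2.37e-05), Col4a2 (1.47), Col27a1 (1.88, SE 0.125, adjusted p = 3.51e-07), Col14a1 (1.17, SE 0.236, adjusted p = 0.00106), Col4a6 (0.53) and Col11a2 (3.01, from 0.0872 to 0.790 CPM). Among the lower ones Col3a1, Col1a1, Col6a1, Col6a2 and Col6a3 fell by 6.24 to 11.6. In the same cells the 7 dermal genes summed to 318 and 236 CPM at E16.5 and to 1.43 and 1.22 at P0. The fibroblast markers summed to 1156 and 1049 and then to 291 and 371 CPM. The part of free RNA in these falls was not tested. Age, tissue preparation and sex changed together here and cannot be told apart. Xist stood at 1240 and 1067 CPM in the whole WT libraries at E16.5 and at 0.114 and 0.0993 at P0. The make-up of the WT epithelial cells moved as well, with hair follicle-like cells at 21.8% and 16.9% at E16.5 and 28.8% and 30.01% at P0, and suprabasal-like cells at 26.5% and 30.6% and then 17.8% and 20.2%. These shares include clusters that were unclear by the rule given below. Without them hair follicle-like cells were 331 of 1520 and 292 of 1733 cells, then 692 of 4258 and 723 of 4045. Suprabasal-like cells were 206 and 287, then 601 and 640, of the same totals. Both moves thus depended on the unclear clusters. The part of the make-up was not tested. The call of Col4a6 was lost with DESeq2 (adjusted p = 0.0672) and without any of 3 of the 4 libraries (0.0633 to 0.152).

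Col1a2 fell less than its partner Col1a1 did. At P0 it stood at 15.5 and 14.46 CPM in WT and 16.6 and 12.4 in Grhl3-/- epithelial cells, from 735, 780, 1195 and 687 UMIs, beside 9, 20, 80 and 16 UMIs of Col1a1. The ratio of Col1a2 to Col1a1 UMIs was thus 14.9 to 81.7 per library, where it was 0.830 to 1.14 in epithelial cells of whole skin and 0.819 to 1.0 in fibroblast-like cells. Col5a2 showed the like against Col3a1, with 718, 1126, 891 and 535 UMIs beside 5, 10, 121 and 23. In the v1 library, made from other cells, the ratio of Col1a2 to Col1a1 was 4.88.

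Not every cluster of the P0 epidermis was clearly of 1 class. Of 11 basal-like, 6 hair follicle-like and 4 suprabasal-like clusters, 6, 3 and 1 were unclear, in that their score for the next epithelial marker list was within 0.2 or that their 10 leading genes held more markers of another epithelial list than of their own. They held 58.8%, 41.7% and 19.8% of the cells of these classes, and 47.6% to 67.0% of the basal-like cells per library. The comparisons below were therefore repeated without them.

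Within the P0 epidermis, suprabasal-like keratinocytes were lower than basal-like keratinocytes for 13 of 18 genes tested and higher for 0, where 24.7% of all genes were lower and 25.6% higher. Col4a1 stood at 159 and 143 CPM in WT and 124.6 and 115 in Grhl3-/- basal-like cells and at 40.7, 22.4, 62.2 and 45.8 in suprabasal-like cells (-1.43, SE 0.231, adjusted p = 0.00205; -2.34 without the unclear clusters). Col27a1 went from 148, 165, 99.3 and 85.9 to 43.5, 41.6, 55.3 and 32.9 CPM (-1.19, SE 0.156, adjusted p = 0.000821; -1.87 without them), neither gene with overlap. Col14a1 went from 40.1, 46.2, 46.3 and 55.0 to 5.41, 3.23, 4.73 and 9.38 CPM (-2.83, SE 0.205, adjusted p = 6.96e-05), but this call was lost without the unclear clusters. The basal-like cells that were left held 5.05, 3.93, 5.34 and 8.01 CPM of Col14a1 and the suprabasal-like cells 3.11, 2.84, 4.45 and 5.18 (-0.13, adjusted p = 0.582). Most of the Col14a1 UMIs of the basal-like class thus came from the unclear clusters. Col4a5 and Col4a6 were lower by 0.60 and 0.96. These calls were lost without WT replicate 1 (adjusted p = 0.0764 and 0.0553) and, for Col4a5, also without WT replicate 2 (0.0699) or the library block (0.105). Col18a1 was lower by 1.31 and Col1a2 by 1.06. The count was 8 without WT replicate 1 and 13 of 14 without the unclear clusters, 11 of them the same genes.

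Hair follicle-like keratinocytes were higher than basal-like ones for 4 of 20 genes and lower for 8, against 23.7% and 20.3% of all genes. Col27a1 was higher, at 240 and 256 CPM in WT and 146 and 119 in Grhl3-/- (0.56, SE 0.0384, adjusted p = 5.69e-06), each above the basal-like value of its own library, and the difference was 1.42 without the unclear clusters. Col25a1 (1.94, 2.96, 6.79 and 7.10 CPM; 1.32, SE 0.192, adjusted p = 0.000514), Col26a1 (2.23, SE 0.220) and Col1a1 (0.92, with 0.388 to 1.78 CPM) were the others. The call of Col25a1 was lost with clusters built without integration (0.33, adjusted p = 0.631). That of Col9a3 in the other direction was lost likewise (-0.71, adjusted p = 0.0746), and that of Col1a1 with DESeq2 (adjusted p = 0.172). Col8a1 (2.09 to 6.13 against 14.2 to 15.2 CPM; -2.03, SE 0.171, adjusted p = 2.08e-05), Col12a1 (-1.83), Col9a3 (-1.72) and Col16a1 (-1.46) were lower, and Col4a1 did not pass (110 to 153 against 115 to 159 CPM; -0.06, SE 0.0429, adjusted p = 0.254). Without the unclear clusters 10 of 15 genes passed, 9 of them the same. Col14a1, which did not pass with all clusters, was then higher in hair follicle-like cells (21.6, 20.4, 18.9 and 18.2 CPM; 1.78, adjusted p = 7.11e-05). Clusters within these classes, pooled over libraries and described without a test, spread Col27a1 from 31.7 to 290 CPM in hair follicle-like cells, with the highest value in the cluster led by Shh and Sp5, and Col14a1 from 0.633 to 148 CPM in basal-like cells, with the highest value in the cluster led by Sfrp1 and Tbx1. That cluster is an unclear one, with scores of 1.18 on the basal and 1.17 on the hair follicle list and Lgr5 and Sox9 among its leading genes.

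**Figure D4:**
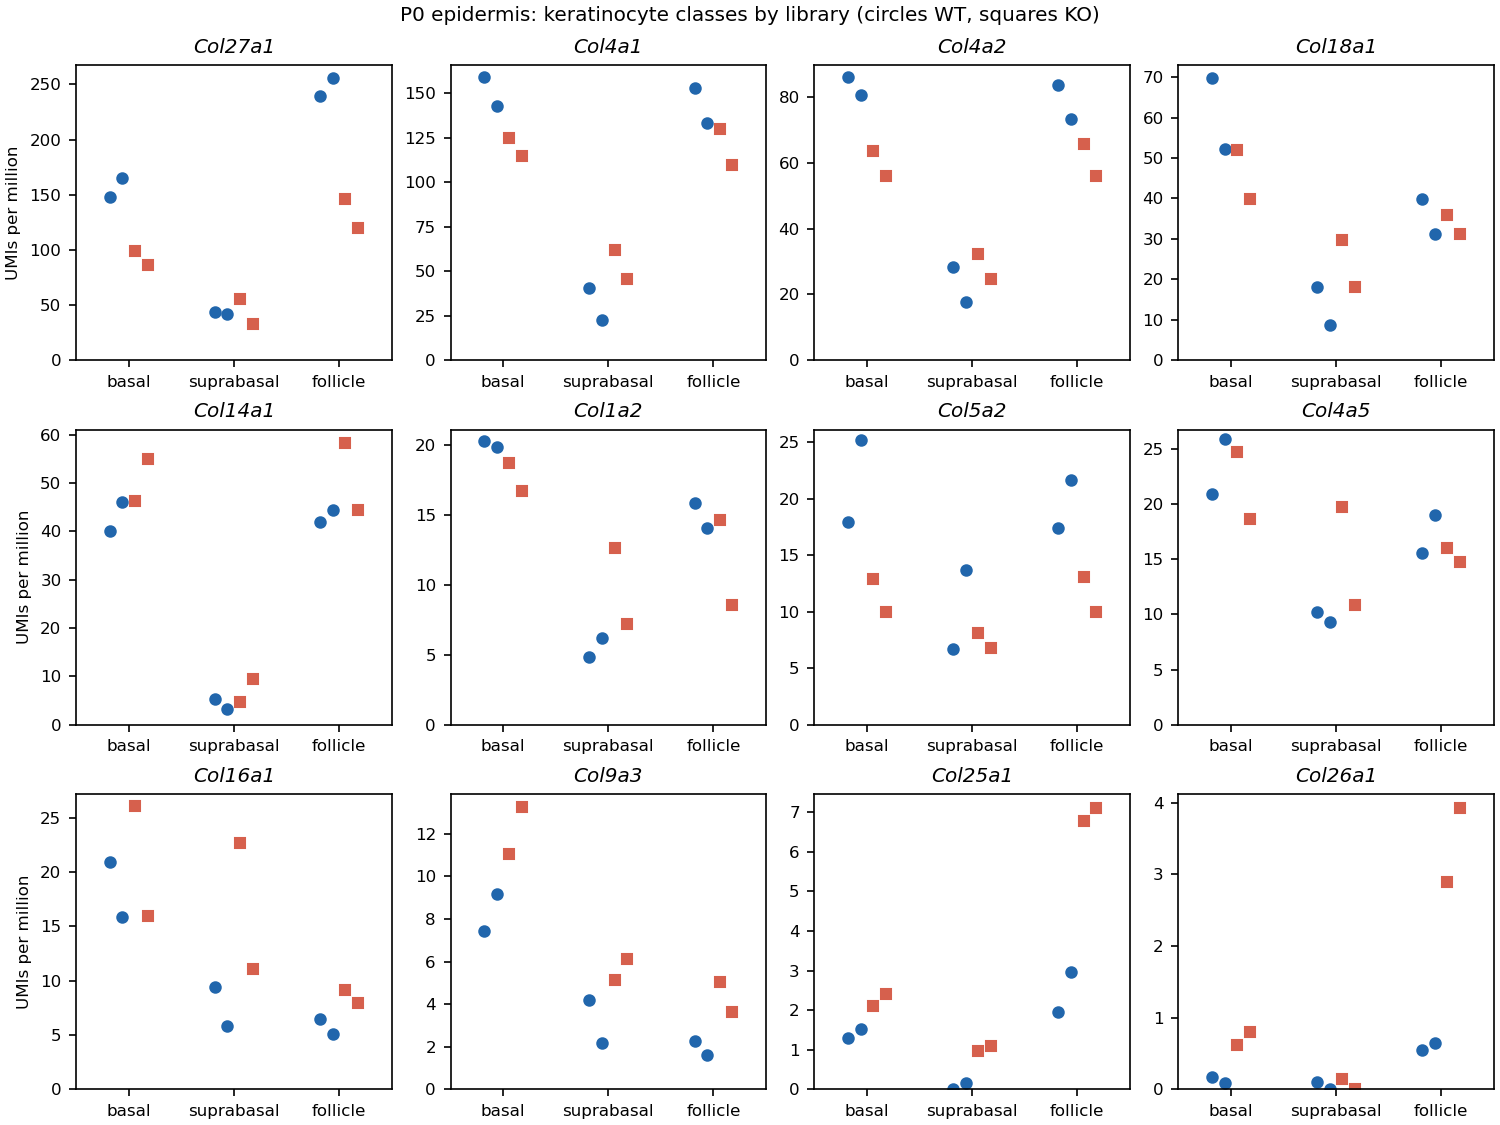
Level of 12 collagen genes in basal-like, suprabasal-like and hair follicle-like keratinocytes of the P0 epidermis, in CPM, with a point for each of the 4 v2 libraries and WT and Grhl3-/- in separate colours. Col4a1, Col14a1 and Col27a1 are lower in suprabasal-like than in basal-like cells in every library, though the call of Col14a1 was lost without the unclear clusters, and Col27a1 is lower in Grhl3-/- than in WT in basal-like and hair follicle-like cells.

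At P0 Grhl3-/- epithelial cells were higher than WT for 7 of 33 collagen genes and lower for 3, where 20% of all genes were higher and 19.8% lower, so the share of collagen genes was near that of all genes for the higher and below it for the lower. The most abundant gene to change was Col27a1, given above, which was lower by 0.53 (SE 0.118, adjusted p = 0.00394). Its values in basal-like cells (148 and 165 against 99.3 and 85.9 CPM) and in hair follicle-like cells (240 and 256 against 146 and 119 CPM) were lower in both Grhl3-/- libraries too, also without the unclear clusters, and those in suprabasal-like cells overlapped. Col5a2 was lower by 0.65 (15.1 and 20.9 against 12.4 and 9.67 CPM; adjusted p = 0.0252) and Col11a2 by 1.85 (under 1 CPM in each library). Col9a3 was higher by 0.79 (5.17 and 5.13 against 8.49 and 8.66 CPM; SE 0.176, adjusted p = 0.00386), Col25a1 by 1.54 (1.16 and 1.59 against 3.52 and 4.25 CPM; SE 0.298, adjusted p = 0.0016) and Col5a1 by 0.57 (8.59 and 7.56 against 11.4 and 11.6 CPM), a call lost without any one of the 4 libraries (adjusted p = 0.0612 to 0.122) and with clusters built without integration (0.0775). The call of Col5a2 was lost without WT replicate 2 (0.218) or Grhl3-/- replicate 2 (0.138), and that of Col11a2 without Grhl3-/- replicate 1 (0.0780) or with DESeq2 (0.165). Col26a1, Col3a1, Col6a3 and Col15a1 were also higher, all at no more than 2.02 CPM in any library. The calls of Col3a1, Col6a3 and Col15a1 were each lost without at least 1 library. Col4a1 did not pass (-0.01, SE 0.153, adjusted p = 0.963).

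The make-up of the P0 samples moved with these values. Suprabasal-like cells were 17.8% and 20.2% of epithelial cells in WT and 7.94% and 7.61% in Grhl3-/-, and hair follicle-like cells 28.8%, 30.01%, 31.2% and 38.0%, unclear clusters included. Within the basal-like class, unclear clusters held 67.0% and 65.9% of cells in WT and 47.6% and 62.3% in Grhl3-/-. Basal-like clusters, pooled over libraries, spread Col27a1 from 14.2 to 203 CPM. The 7 dermal genes summed to 1.43 and 1.22 CPM in WT and 2.45 and 2.10 in Grhl3-/- epithelial cells. Condensate-like cells, a remnant of the dermis, numbered 36 and 15 in WT and 72 and 65 in Grhl3-/-. The part of these shares in the differences was not tested, and the count was 6 without WT replicate 2. In the 3 P0 libraries with at least 20 condensate-like cells, Col23a1 was at 251, 259 and 242 CPM and Col15a1 at 137, 274 and 297, while Col1a1 was at 59.0, 185 and 81.7 CPM beside 428, 610 and 384 CPM of Col1a2.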

How the data were processed

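Skin cells were measured in 13 droplet 3′ RNA-seq libraries, 12 with v2 and 1 with v1 chemistry. The deposited files hold UMI counts per gene and barcode, which the authors made with Cell Ranger (version 1.3.1 in the submitters' processing notes, another version in the study's methods) on mm10, with Seurat named for the later steps. They are raw counts with no normalization. Free RNA was not removed, 3′ tags read only the end of each transcript, and strand-specific or paralogue assignment followed Cell Ranger, so levels compare the same gene between classes and not genes with each other.

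Cells with 600 to 4800 genes (embryonic) or 900 to 7700 genes (P0) and at most 10% mitochondrial UMIs were kept. Each age was integrated in Seurat 5.3.0 on 3000 variable genes without collagens, with 30 components, 20 neighbours and resolution 1.5, and clusters were named from marker lists (mean score over 0.5, at least 3 markers, gap of 0.2 to the next list). The gap and the comparison of leading genes were not asked between epithelial lists, and leaving out the clusters that miss either was an alternative for the 2 class comparisons at P0. Doublets were scored and kept, and their removal was an alternative.

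UMIs were summed per library and class (at least 20 cells) and tested with edgeR 4.0.16 (filterByExpr, TMM, quasi-likelihood F test, two-sided) in R 4.3.3, with Benjamini-Hochberg adjustment over all genes tested. A level (CPM) is the share of a gene in the UMIs of that sum, scaled to 1e6, and errors given as ± are SDs over libraries. Class comparisons had the library as a block, and genotype and age comparisons used group means. In all, 21 comparisons were fitted. Genotype and age comparisons were fitted on all embryonic libraries together, or on all v2 libraries for epithelial cells. Their p-values thus rest on a spread pooled over these groups of 2 libraries, not on the compared groups alone. Those of class comparisons rest on the libraries of the age compared. The study calls the libraries biological replicates. Data were also simulated from the real means, with a single spread set for all genes and not taken from these libraries. There the KO against WT test in fibroblast-like cells at E16.5 (14001 genes) recovered 70.4% of genes changed by 1 on the log2 scale. It recovered 97.8% of those changed by 2. The WT age test in endothelial-like cells (9957 genes) recovered 52.6% and 93.2%. Recovery of genes with a larger spread was not simulated. Total UMIs were 49245953 to 107038146 per library, and all intervals and floors cover counting error only where no libraries are compared.

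The collagen genes, the role groups and the lists of processing genes, receptors and markers were chosen with earlier results of these data known. In each comparison the genes past the threshold, at most 25, were eligible for naming in order of size, with those not past it of at least 100 CPM, and outside the collagens only genes of the lists and the leading genes of clusters are named, the latter to identify a cluster. Alternatives were DESeq2 1.42.0, RLE normalization, no filter on low counts, other class definitions, doublet removal, the replicate block and leaving out each library, and the adding of unnamed clusters to classes, the leaving out of unclear epithelial clusters, the crossed block and all alternatives of the genotype by age comparison were chosen after seeing the data. Promoter windows are from RefSeq on GRCm38.p6, and all 42 genes matched the GENCODE annotation of GRCm38 by identifier.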

Additional observations from a re-analysis of the deposited data

Results flagged for a closer look

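In fibroblast-like cells the change from E14.5 to E16.5 differed between Grhl3-/- and WT for 4 collagen genes by the test of the difference itself. The Grhl3-/- change exceeded the WT change by 3.19 on the log2 scale for Col6a5 (edgeR adjusted p = 0.0359), by 1.87 for Col8a2 (0.0236), by 1.10 for Col9a2 (0.0442) and by 2.013 for Col11a1 (0.0158). Values per library at E14.5, and for Col9a2 also at E16.5, are given with the genotype comparisons. Of the 4, Col6a5 rests on 1.52 CPM or less in each library and lost its call with DESeq2 (adjusted p = 0.140).

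The WT P0 library of v1 chemistry entered no comparison. In its 4192 epithelial cells 28 of the 42 collagen genes had more than the 3 UMIs that a count of 0 allows. Col4a1 stood at 75.5 CPM there against 108 and 129 in the v2 WT libraries, Col27a1 at 56.5 against 149 and 159, and Col6a1 at 5.54 against 0.802 and 1.09. Its basal-like cells were again above its suprabasal-like cells for Col4a1 (83.9 and 10.8 CPM), Col27a1 (44.8 and 5.16 CPM) and Col14a1 (15.0 and 1.68 CPM, or 8.28 and 1.66 without its unclear clusters), with no test since there is 1 such library.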

How the results depend on the processing

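Counts of collagen genes past the threshold, in either direction, changed by over 1.5 times under few settings. Without the library block, the count was 8 (from 13) for suprabasal-like and 6 (from 12) for hair follicle-like against basal-like cells at P0. With no filter on low counts, the Grhl3-/- against WT counts became 14 (from 4) and 5 (from 0) in fibroblast-like cells at E14.5 and E16.5 and 3 (from 0), 2 (from 1) and 16 (from 10) in epithelial cells at E14.5, E16.5 and P0, and 12 (from 4) for the genotype by age difference. The cause was not tested. The last of these counts was 2 with unnamed clusters added.

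The replicate numbers did not pair the libraries, since same-numbered libraries correlated at -0.119 to 0.0927. The replicate block gave 0 (from 1) for epithelial cells at E16.5, with Col9a3 at 1.15, and 2 (from 4) for the genotype by age difference, and moved no other count by over 1.5 times. A block with crossed numbers gave 1 for epithelial cells at E16.5.

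Leaving out 1 library gave these ranges, with the full count in brackets. Against fibroblast-like cells they were 22 to 26 [23] for condensate-like, 30 to 31 [31] for endothelial-like, 28 to 30 [29] for pericyte-like and 32 to 34 [34] for epithelial cells at E14.5, and 28 to 29 [29], 30 to 31 [30], 26 to 28 [28] and 29 to 30 [30] at E16.5. At P0 they were 8 to 15 [13] for suprabasal-like and 11 to 12 [12] for hair follicle-like cells. For Grhl3-/- against WT they were 1 to 8 [4] and 0 to 0 [0] in fibroblast-like cells at E14.5 and E16.5, and 0 to 0 [0], 0 to 0 [1] and 6 to 9 [10] in epithelial cells at E14.5, E16.5 and P0. For age they were 23 to 28 [27] in WT and 23 to 26 [27] in Grhl3-/- fibroblast-like cells, 3 to 8 [10] in endothelial-like, 6 to 13 [16] in epithelial cells, 22 to 23 [24] from E16.5 to P0, and 0 to 6 [4] for the genotype by age difference.

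Among single genes, Col6a3 (-0.14) and Col15a1 (-0.15) in condensate-like cells at E16.5 turned direction with unnamed clusters added, and Col25a1 in WT fibroblast-like cells, not past the threshold, turned to a rise of 0.76 between the ages with clusters built without integration. At P0, Col14a1 turned to 1.78 in hair follicle-like against basal-like cells without the unclear epithelial clusters. The cause was not tested. DESeq2 lost 22 calls of single genes, clusters without integration 16, doublet removal 20 and RLE normalization 0.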
